A study of Caenorhabditis elegans with 2 samples.

Results

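The *flp* and *nlp* genes of *C. elegans* encode the precursors of its FMRFamide-related and other neuropeptides. Members were all protein-coding genes of Ensembl release 115 (WBcel235) whose name begins with *flp-* or *nlp-*, which gave 102 of 19985 protein-coding genes, namely 31 *flp* and 71 *nlp* genes. Of these, 32 lie on the X chromosome and 70 on autosomes. The data are 2 lists of ChIP-seq peaks from 1 condition, L3 larvae of genotype zh136[egl-43::gfp], in which *gfp* is fused to the endogenous *egl-43* gene. EGL-43 is a zinc finger transcription factor homologous to mammalian EVI1. The larvae were raised for 27 h at 25°C in 2 independent populations, fixed with formaldehyde and EGS, and precipitated with an anti-GFP antibody. Chromatin came from whole animals, so neurons and all other tissues were sampled together and a peak cannot be assigned to a cell type. No precipitation from untagged larvae and no input DNA was analysed here.

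A neuropeptide precursor passes through the secretory pathway into dense core vesicles, where convertases cut it at basic residues and further enzymes trim and amidate the peptides. The released peptides act mostly on G protein-coupled receptors and tune behaviours such as locomotion, feeding, egg laying and sleep-like states. FLP peptides share a C-terminal Arg-Phe-amide, whereas NLP genes are a mixed group, in which some members encode antimicrobial peptides of the epidermis. *egl-43* itself is known for its requirement in the HSN motor neurons, which drive egg laying, and in the phasmid sensory neurons of the tail.

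A peak was placed at a gene when it overlapped the gene body or the 2000 bp upstream of the gene start. Overlapping peaks of the lists were merged into regions, which are called shared where both replicates contributed. Fold enrichment compares the signal at the summit, the highest point of a peak, with the local background computed by MACS2, and it is given for each replicate on a linear scale. The lists hold 8394 peaks in replicate 1 and 10925 in replicate 2. They state no totals of reads, and the depth of either library is therefore unknown. They form 11650 regions, of which 7259 are shared.

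EGL-43 regions found in both lists lay at a smaller share of peptide precursor genes than of all protein-coding genes. A shared region lay at 15 of the 102 genes, or 14.7% (95% Clopper-Pearson interval 8.47 to 23.1%, counting error only). Among all protein-coding genes this share was 25.2%. A further 15 members had only peaks that were not shared. With these included, 30 members (29.4%) had a peak of any kind, close to the 33.7% of all protein-coding genes. The other 72 (70.6%) had no peak in either list, close to the 66.3% of all protein-coding genes. The 15 genes with a shared region were *flp-4*, *flp-5*, *flp-9*, *flp-25*, *nlp-3*, *nlp-4*, *nlp-14*, *nlp-16*, *nlp-36*, *nlp-45*, *nlp-47*, *nlp-50*, *nlp-56*, *nlp-76* and *nlp-82*. Genes are not replicates of a condition, and the difference between the shares was not tested. In the longer list alone, without replicate 1, 28 members (27.5%) had a peak, against 32.0% of all protein-coding genes. In the shorter list alone, without replicate 2, 18 members (17.6%) had one, against 26.9%.

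With all body lengths pooled, the *flp* and *nlp* genes had similar shares with a shared region. A shared region was found at 4 of 31 *flp* genes (12.9%, interval 3.63 to 29.8%) and at 11 of 71 *nlp* genes (15.5%, interval 7.996 to 26.0%). The intervals overlap over most of their length, and no test over genes was made. *flp* genes had 8 shared regions, 4 of them in *flp-5*, and *nlp* genes had 13, at most 2 per gene. With peaks of a single list included, 12 *flp* genes (38.7%) and 18 *nlp* genes (25.4%) had a peak of any kind, against 33.7% of all protein-coding genes. Replicate 2 alone contributed 7 of these 12 *flp* genes.

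The shares of X-linked and autosomal neuropeptide genes were also similar. On X, 5 of 32 members had a shared region (15.6%, interval 5.28 to 32.8%), against 10 of 70 on autosomes (14.3%, interval 7.07 to 24.7%). Over all protein-coding genes, the shares were 33.6% on X and 23.8% on autosomes. Members were shorter on both, with a median body of 852.5 bp against 2548 bp over all protein-coding genes on X, and 1129 bp against 1964 bp on autosomes. On X, 2 of 19 members under 1 kb had a shared region (10.5%, against 14.7% of all protein-coding genes). From 1 to 2 kb it was 1 of 8 (12.5%, against 22.9%), and at 2 kb and longer 2 of 5 (40%, against 42.8%). The part of length was not tested. The X-linked members with a shared region were 1 of 13 *flp* genes (*flp-5*) and 4 of 19 *nlp* genes (*nlp-3*, *nlp-14*, *nlp-45* and *nlp-76*). Of these 5 genes, 3 held 2 or more shared regions, against 1 of the 10 autosomal genes (*flp-4*). Among all protein-coding genes with a shared region, 36.3% of the X-linked and 27.7% of the autosomal ones held 2 or more. On chromosome V a shared region was found at 0 of 21 members, beside 16.3% of all protein-coding genes there. A count of 0 of 21 allows a share of up to 14.3% when taken as under 3 counts, and of up to 16.1% by the Clopper-Pearson interval. These limits take the 21 genes as independent, though 6 of them are adjacent genes of the *nlp-29* cluster. The difference from all protein-coding genes on V was not tested.

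**Figure D1:**
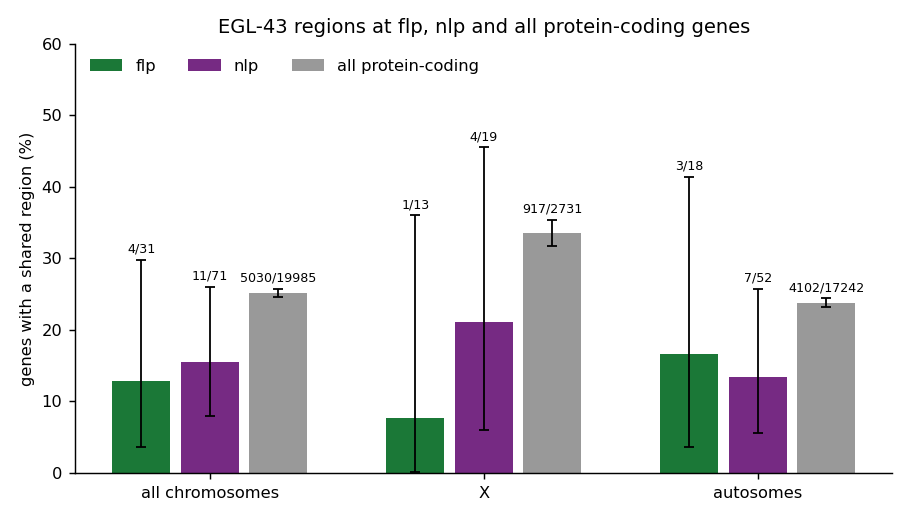
Share of genes with a shared EGL-43 region in the body or the 2000 bp upstream (bars, in %, with 95% Clopper-Pearson intervals and counts above them) for *flp*, *nlp* and all protein-coding genes, on all chromosomes, on X and on autosomes. All members together reached 14.7%, below the 25.2% of all protein-coding genes, and on X they reached 15.6%, against 33.6%. Body lengths are not matched: on X the median was 852.5 bp for members and 2548 bp for all protein-coding genes.

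Neuropeptide genes are short, and among all protein-coding genes the share with a shared region was highest at 2 kb and longer. The median body was 1019 bp among members and 2026 bp among all protein-coding genes, and the shares were therefore set side by side within classes of body length. Under 1 kb, 5 of 47 members had a shared region (10.6%, interval 3.55 to 23.1%), against 17.9% of all protein-coding genes. From 1 to 2 kb it was 2 of 28 (7.14%, interval 0.877 to 23.5%), against 17.1%. At 2 kb and longer it was 8 of 27 (29.6%, interval 13.8 to 50.2%), close to the 32.7% of all protein-coding genes. In each class the interval held the share of all protein-coding genes. All 4 *flp* genes with a region belonged to the longest class, in which they were 4 of 9 (44.4%), beside 4 of 18 *nlp* genes (22.2%). Under 1 kb a shared region lay at 0 of 8 *flp* and 5 of 39 *nlp* genes, and from 1 to 2 kb at 0 of 14 and 2 of 14. The part of gene length in the difference was not tested beyond this split.

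Fold enrichment at these regions was low. Over the 21 regions at members, the median fold enrichment came to 3.05 for replicate 1 and 3.46 for replicate 2, against 3.91 and 4.39 over all 7259 shared regions. When each gene was represented by its strongest region and the lower of the replicate values, the median was 3.05 over the 15 members (range 2.26 to 11.8), and 4.20 over the 5030 protein-coding genes with a shared region. Of the 21 regions, 17 stayed under 4 in at least 1 replicate. At members, the log2 ratio of replicate 2 to replicate 1 was 0.15 in the median, with an SD of 0.27, and over all shared regions it was 0.13 with an SD of 0.31.

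**Figure D2:**
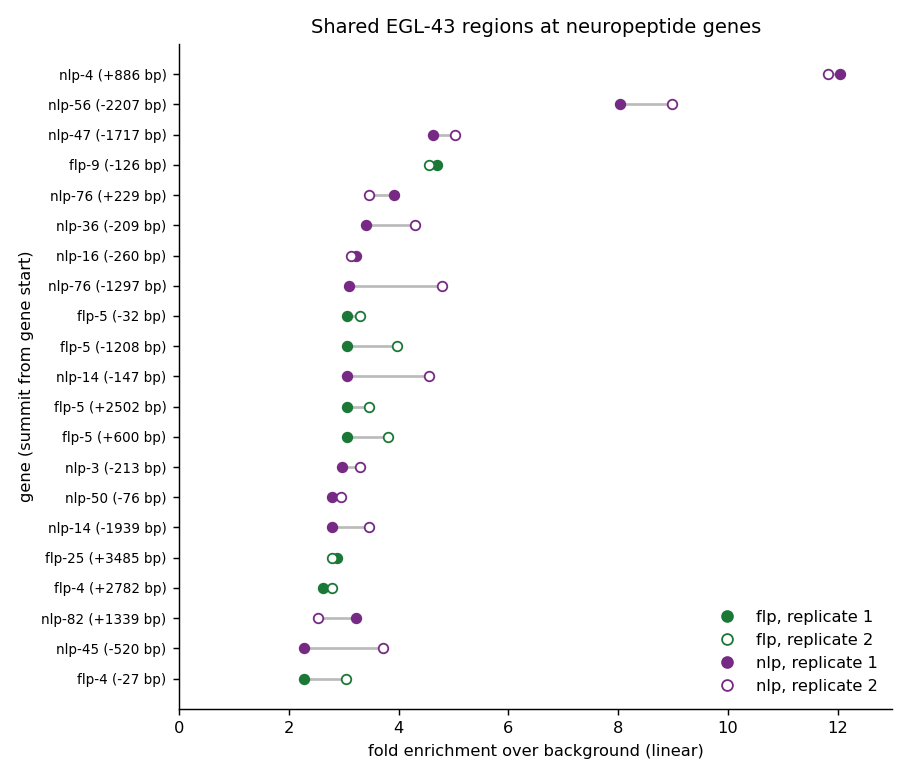
Fold enrichment (linear axis) of the 21 shared regions at neuropeptide genes, with replicate 1 as filled and replicate 2 as open circles, *flp* in green and *nlp* in purple, and the summit's distance from the gene start in parentheses. Regions at *nlp-4* (12.05 and 11.8) and *nlp-56* (8.03 and 8.98) stand apart from the others, and both summits lie outside the assignment window of the gene.

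The 30 bases either side of the mean of the replicate summits are given. Among those listed, the *flp-5* window nearer the gene start and the windows at *nlp-14*, *nlp-45* and *nlp-47* hold neither replicate's summit. There the summits lay 81 to 289 bp apart. Of the 14 shared regions with a summit upstream of a member, 12 have no annotated exon in this window, at 10 members, and all 12 are listed. They are read from the RefSeq sequence of WBcel235 on the strand of the gene, and capitals mark CTCCGCC or its reverse complement, which 3 of the 12 hold. The choice of this word came after the sequences had been read.
flp-5 (chrX:8527012-8527072, plus strand): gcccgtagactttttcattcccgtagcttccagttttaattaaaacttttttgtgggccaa
flp-5 (chrX:8528188-8528248, plus strand): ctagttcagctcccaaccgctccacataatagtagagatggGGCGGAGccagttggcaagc
flp-9 (chrIV:12757666-12757726, minus strand): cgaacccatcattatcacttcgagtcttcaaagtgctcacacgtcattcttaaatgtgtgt
nlp-3 (chrX:13178630-13178690, minus strand): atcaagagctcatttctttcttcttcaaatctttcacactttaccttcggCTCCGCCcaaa
nlp-14 (chrX:8919540-8919600, minus strand): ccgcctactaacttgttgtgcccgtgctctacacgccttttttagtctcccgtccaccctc
nlp-14 (chrX:8921332-8921392, minus strand): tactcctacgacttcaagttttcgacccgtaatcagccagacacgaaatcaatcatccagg
nlp-16 (chrIV:6260062-6260122, minus strand): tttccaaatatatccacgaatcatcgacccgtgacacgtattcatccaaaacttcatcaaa
nlp-36 (chrIII:9488492-9488552, plus strand): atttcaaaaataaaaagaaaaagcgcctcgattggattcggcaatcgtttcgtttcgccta
nlp-45 (chrX:2338800-2338860, minus strand): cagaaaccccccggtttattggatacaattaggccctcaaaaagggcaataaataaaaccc
nlp-47 (chrIV:5289100-5289160, plus strand): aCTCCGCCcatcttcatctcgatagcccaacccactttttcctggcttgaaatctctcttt
nlp-50 (chrII:6764928-6764988, plus strand): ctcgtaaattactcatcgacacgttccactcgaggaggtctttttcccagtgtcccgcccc
nlp-56 (chrIV:14786914-14786974, minus strand): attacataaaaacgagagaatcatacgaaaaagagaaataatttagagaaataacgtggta

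Within 50 bp either side of the mean summits, 5 words were searched on both strands, of which 4 were in at most 1 of the windows at members. At the 5 members' regions with summits over 100 bp apart, this window holds neither replicate's summit. AGATGAG, the site of the C-terminal zinc fingers of mammalian EVI1, occurred in 1 of the 21 members' windows (4.76%, at *nlp-82*), and in 4.02% of all shared regions. ACAAGATA, the site of the N-terminal fingers, occurred in none of the 21, and in 0.248% of all shared regions. The AP-1 site, searched as TGACTCA or its variant TGAGTCA, was likewise in none, and in 3.39% of all shared regions. TGATAAG, which zinc finger factors of the ELT family recognise, was also in none, and in 0.716% of all. CTCCGCC was in 4 of the 21 windows (19.05%), those of *flp-5*, *nlp-3*, *nlp-47* and *nlp-76*, and in 3.04% of all shared regions. This word was picked after the members' sequences had been read, so its count is a description of these windows. It does not overlap the other words.

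Fewer of the regions at these genes were found in both lists. Of the 48 regions at members, 21 were shared (43.8%, interval 29.5 to 58.8%), against 62.3% of all 11650 regions. Replicate 1 alone gave 4 of the other regions and replicate 2 alone 23, in a genome where the one-list regions numbered 877 and 3514. Their fold enrichment had a median of 2.79 in replicate 1 and 2.95 in replicate 2.

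The 2 strongest regions had summits nearer to the starts of other genes. At *nlp-4*, a region from 10516764 to 10517436 on chromosome I reached 12.05 in replicate 1 and 11.8 in replicate 2 and ranked 89 of 7259 by the lower value. Its mean summit fell beyond the 3′ end of *nlp-4*, 886 bp from the gene start, and 19 bp from the start of the snoRNA gene *F59C6.15*. At *nlp-56*, the region from 14786717 to 14787107 on chromosome IV reached 8.03 and 8.98. It touched the 2000 bp window by only 21 bp, and its summit lay 2207 bp upstream of *nlp-56* but 87 bp from the start of *melo-1*. The only other region whose nearest protein-coding start was not the member's was that of *flp-25*. Just outside the window, the closest shared region without assignment was at *nlp-53*, 2142 bp upstream of the gene, with 2.35 in replicate 1 and 2.45 in replicate 2.

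Among the *flp* genes, *flp-5* was the one with most shared regions. Its peptides are known to excite the pharynx in physiological assays. The 4 shared regions all had a fold enrichment of 3.05 in replicate 1, a value found at 143 shared regions genome-wide. In replicate 2 they had 3.97 with the summit 1208 bp upstream, 3.29 at 32 bp upstream, 3.80 in intron 1 and 3.46 in intron 2. The regions thus covered parts of the promoter and body of this gene (X, 8528250 to 8531076, plus strand) at similar levels. A further peak in replicate 2 alone, in intron 1, had 3.04.

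*flp-9* had the highest region of any *flp* gene, from 12757503 to 12757804 with its mean summit 126 bp upstream of the gene start (IV, 12754558 to 12757570, minus strand). It reached 4.70 in replicate 1 and 4.56 in replicate 2. The summits of the replicates, at 12757707 and 12757684, were close to each other, and the region ranked 2322 of 7259. It was the only *flp* gene left at a fold enrichment of at least 4 in each list.

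*flp-4* is the longest gene of the *flp* group, with 6727 bp (II, 10048868 to 10055594, plus strand). It had 2 shared regions and 5 peaks of replicate 2 alone, spread over promoter, intron 1 and the later exons. The region at its start had 2.26 in replicate 1 and 3.04 in replicate 2, with summits 280 bp apart, and that in intron 1 had 2.61 and 2.78. The 5 peaks of replicate 2 alone reached up to 3.46, above both shared regions. *flp-25* had 1 region in intron 2, at 2.87 and 2.78.

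Of the *nlp* genes, *nlp-47* had the strongest region with a summit inside its window. *nlp-47* encodes a peptide related to gonadotropin-releasing and adipokinetic hormones. The region lay 1717 bp upstream of the gene (IV, 5290847 to 5293654, plus strand), with 4.62 in replicate 1 and 5.03 in replicate 2, and its summit was 213 bp from the start of an annotated piRNA gene, *21ur-6090*. The nearest protein-coding start was that of *nlp-47*.

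*nlp-3* (X, 13177856 to 13178447, minus strand) stimulates egg laying and is released by the HSN neurons. Its region, from 13178534 to 13178849, was enriched 2.96-fold in replicate 1 and 3.29-fold in replicate 2, with the summit 213 bp upstream. *nlp-14* (X, 8917423 to 8919423, minus strand), which is expressed in the sleep-promoting ALA neuron, had a region 147 bp upstream at 3.05 and 4.56 and another 1939 bp upstream at 2.79 and 3.46. In both, replicate 2 was the higher one, and the summits of the first were 249 bp apart.

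*nlp-36* and *nlp-16* had single promoter regions, 209 and 260 bp upstream. They reached 3.40 and 4.30 at *nlp-36*, and 3.22 and 3.12 at *nlp-16*, in replicates 1 and 2. The region of *nlp-50*, 76 bp upstream, had 2.79 and 2.94 and lay within the body of *agr-1*. That of *nlp-82*, in exon 2, had 3.22 and 2.53. The lowest member by the weaker replicate was *nlp-45*, with 2.26 in replicate 1 and 3.71 in replicate 2 and summits 289 bp apart. Its mean summit lay within the body of *T01B6.1*.

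*nlp-76* had 2 shared regions. The one in exon 1, 229 bp from the gene start, had 3.92 in replicate 1 and 3.46 in replicate 2, the highest lower value of any X-linked member. The one 1297 bp upstream had 3.09 and 4.78, but its summit lay in the body of *nhr-17* and 28 bp from the start of a tRNA gene.

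Most summits lay upstream of the gene start, as they did over all protein-coding genes. Of the 21 regions, 14 had their summit upstream (66.7%), 4 in introns (19.05%), 2 in exons (9.52%) and 1 downstream. Over all pairs of a protein-coding gene and a shared region, 62.3% were upstream, 24.1% intronic and 6.88% exonic. The first 500 bp upstream held 8 of the members' summits (38.1%), against 26.7% over all pairs, and the median distance of the upstream summits was 237 bp, against 707 bp. All 4 intronic regions were in *flp* genes. The member's own start was the nearest protein-coding start for 18 of 21 regions (85.7%), against 67.1% over all pairs.

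**Figure D3:**
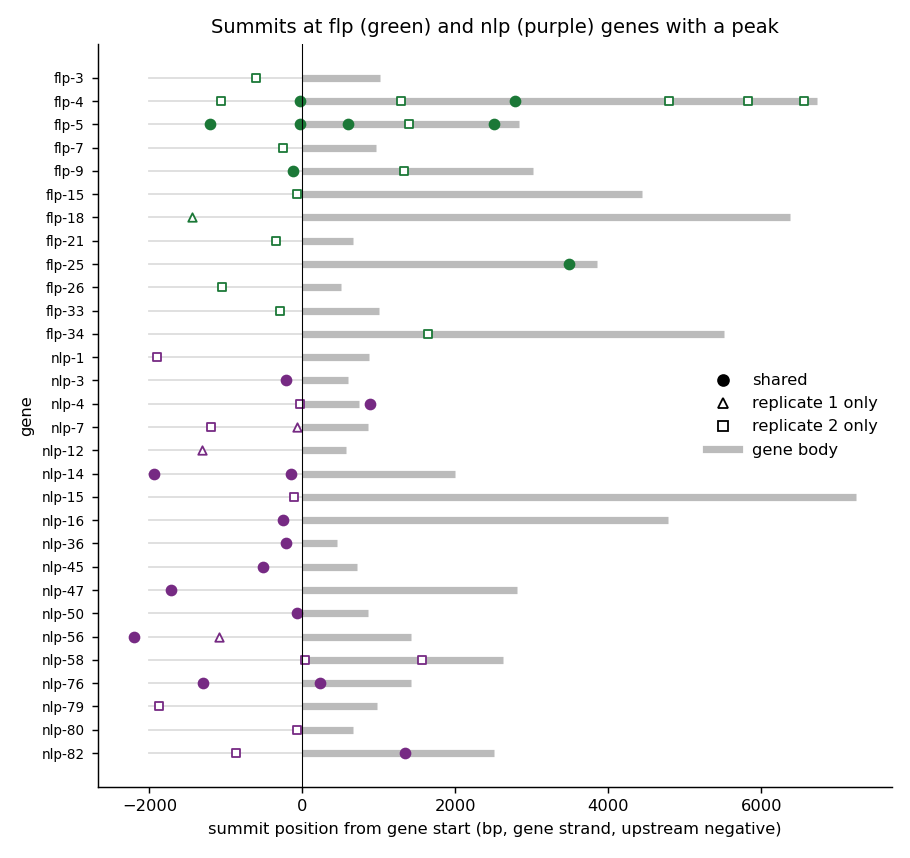
Mean summit positions in bp from the gene start, on the gene's strand with upstream negative, for the 30 members with any peak (*flp* in green, *nlp* in purple). Filled circles are shared regions, triangles and squares are peaks of replicate 1 or 2 alone, and grey bars are gene bodies. The 4 shared regions of *flp-5* and the 7 regions of *flp-4* span promoter and body, while most *nlp* genes have a single summit upstream.

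Peaks in a single list were at most 3.46. The highest were in replicate 2, at *flp-4* (3.46), *flp-33* (3.38, 298 bp upstream) and *flp-34* (3.38, in the gene body). *flp-34* encodes a neuropeptide Y-like peptide that acts in olfactory learning. In replicate 1 alone, *nlp-12*, a cholecystokinin-like gene of the stretch-sensitive DVA neuron, had a peak of 3.37, but its summit was 378 bp from the start of *emr-1* and 1317 bp from that of *nlp-12*. *flp-15* had a replicate 2 peak of 3.29 at 72 bp upstream, and *nlp-58* had 2, at 3.29 and 2.95. *nlp-7*, whose peptides reduce egg laying, showed a peak of each list that did not overlap, at 2.70 in replicate 1 and 2.45 in replicate 2, and so did not count as shared. *flp-7*, a regulator of fat loss, had 3.04 in replicate 2 alone, 258 bp upstream.

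Of 15 well-studied members, *nlp-3* had a shared region (6.67%, against 25.2% of all protein-coding genes) and 4 had peaks in a single list. The other 10 had no peak (66.7%), near the 66.3% of all protein-coding genes. *flp-18*, whose peptides act in feeding and metabolism, had 2.87 in replicate 1 alone, and *flp-21*, a ligand gene of the NPR-1 receptor, had 2.36 in replicate 2 alone. *nlp-1*, an AWC olfactory neuron gene, had 2.95 in replicate 2 alone, at 1900 bp upstream. No peak was found at *flp-1*, which modulates locomotion, at *flp-8*, at the egg-laying inhibitors *flp-10* and *flp-17*, or at the sleep genes *flp-11*, *flp-13* and *nlp-22*. *nlp-8*, *nlp-29* and the intestinal defecation signal *nlp-40* had none either. Upstream of *flp-1* the nearest shared region was 19193 bp away, and upstream of *flp-17* it was 57894 bp away. Over the 87 members without a shared region, the nearest one upstream was a median of 18121 bp from the gene (interquartile range 11372 to 39688 bp).

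The *nlp-29* cluster on chromosome V encodes antimicrobial peptides that the epidermis makes after infection or wounding. None of its 6 genes (*nlp-27*, *nlp-28*, *nlp-29*, *nlp-30*, *nlp-31* and *nlp-34*) had a peak in either list. All 6 have bodies under 1 kb, and 76.3% of all protein-coding genes of that length had no peak either. A count of 0 of 6 allows a share of up to 50% when taken as under 3 counts, and of up to 45.9% by the Clopper-Pearson interval. These limits take the 6 adjacent genes as independent. For *nlp-29*, the nearest shared region on either side was 44905 bp away. Without the cluster, 15 of the other 96 members had a shared region (15.6%).

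Most genes for making and releasing the peptides had a shared region, and the difference from the peptide genes was not tested. Of 9 genes for precursor processing, 6 had a shared region (66.7%, interval 29.9 to 92.5%). The strongest was at *egl-3*, the proprotein convertase 2, with 9.76 in replicate 1 and 13.2 in replicate 2. *egl-21*, the carboxypeptidase E that removes the basic residues, had 8.62 and 8.78 with the summit 12 bp upstream. *pgal-1*, which completes C-terminal amidation, had 7.58 and 9.20 at 35 bp upstream. Of 8 genes for dense core vesicles, 7 had one (87.5%, interval 47.3 to 99.7%). The highest were *unc-31*, the CAPS protein of vesicle release, with 12.6 and 13.8 but with a summit 2253 bp upstream, *tbc-8*, a regulator of RAB-2, with 9.06 and 11.9, and *unc-108*, which is RAB-2 itself, with 7.65 and 9.69. All 3 exceeded each *flp* gene in both replicates. These genes are long, with median bodies of 4577 bp for processing and 8804 bp for vesicles. Of all protein-coding genes of 2 kb and longer, 32.7% had a shared region. This share is inside the interval of the processing genes and below that of the vesicle genes. The median body in that class is 3603 bp, so it does not match either list in length. The part of length was not tested.

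Few receptor genes had a shared region. Among 104 peptide receptor genes, 15 had a shared region (14.4%, interval 8.30 to 22.7%), against 25.2% of all protein-coding genes and 32.7% of those of 2 kb and longer. The median receptor body was 3831 bp, and the part of length was not tested. *npr-23* (11.3 and 12.7), *frpr-13* (5.96 and 5.18) and *npr-10* (4.27 and 5.91) were the strongest. Insulin-like peptide genes had a shared region at 2 of 39 (5.13%, interval 0.627 to 17.3%). The share was 25.2% of all protein-coding genes and 17.9% of those under 1 kb. The median insulin-like body was 655 bp, but some were longer than 1 kb, that of *ins-18* among them. The 2 genes with a shared region were *ins-39* at 7.34 and 3.71 and *ins-18* at 2.61 and 2.28. *pdf-1*, *ntc-1* and *snet-1*, other peptide genes, had no peak.

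**Figure D4:**
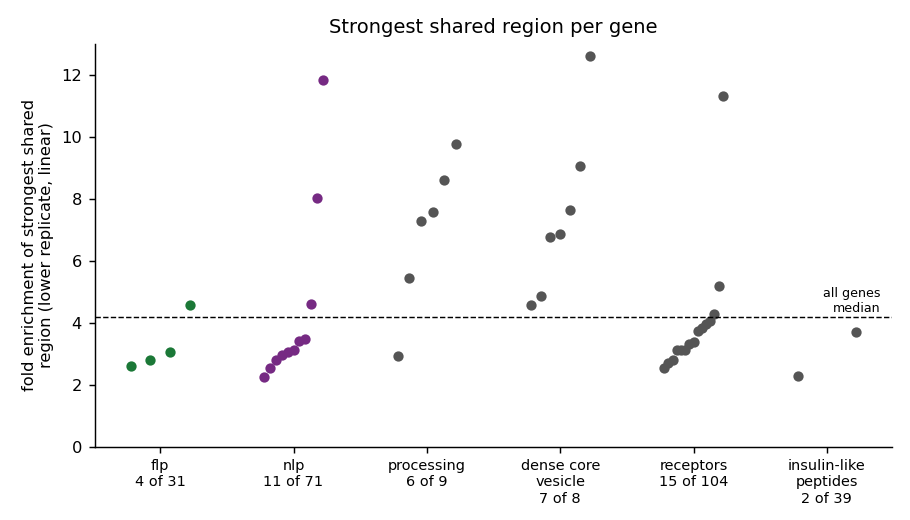
Fold enrichment of the strongest shared region of each gene (lower of the 2 replicates, linear axis), by gene list, with the number of genes that have one under each name. The dashed line is the median over all protein-coding genes with a shared region, 4.20. The 3 highest *nlp* genes and 1 *flp* gene lie above it, as do 5 processing genes and all 7 vesicle genes. The summits at *nlp-4*, *nlp-56* and the vesicle gene *unc-31* lie outside the assignment windows of these genes.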

How the data were processed

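The 2 lists of ChIP-seq peaks correspond to the replicates of the single condition. The authors aligned reads to ce11 with BWA, converted them with SAMtools and called peaks with MACS2 on each replicate separately, at a stated false discovery rate of 0.05. The deposited lists stop at q-values of 0.00395 in replicate 1 and 0.00688 in replicate 2, and no peak here means none past those limits. The deposited lists hold a fold enrichment at the summit (a ratio over estimated background), −log10 of the p-value and of the q-value, a score derived from the q-value that was not used, and the distance from peak start to summit. Genes came from Ensembl release 115 on WBcel235, the assembly of ce11, and all peaks end within its chromosomes. Regions were formed by merging peaks that overlapped by at least 1 bp. Shares carry 95% Clopper-Pearson intervals. No test was run, since there was 1 condition and genes are not replicates.

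Named genes were the 12 members with the highest regions, the 5 with most, the 5 highest in a single list, 15 well-studied members and the top 3 of each other list. Members and lists were chosen with earlier results of these data known. Merging and assignment were tested on simulated data. Python 3.11.15, numpy 2.4.6, pandas 2.3.3, scipy 1.17.1 and matplotlib 3.10.9 were used.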

Additional observations from a re-analysis of the deposited data

How the results depend on the processing

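The share of members with a shared region was lower than that of all protein-coding genes under each of the 12 alternatives tried, from 3.92% against 13.7% at a fold enrichment of at least 4 to 27.5% against 32.0% without replicate 1. With the fold enrichment of at least 4 in each list, 4 members remained (1 *flp* and 3 *nlp* genes, 0 X-linked and 4 autosomal, with 4 regions). The median of their strongest region was 6.32, and the cut itself kept it from falling below 4. The 4 members include *nlp-4* and *nlp-56*, whose summits lie outside their windows. With the summit of each list inside the window, 13 members had a shared region (12.75%, against 23.9% of all protein-coding genes). By the nearest protein-coding start, 12 had one (11.76%, against 18.2%). With 5000 bp upstream, *flp* genes with a region numbered 8 and X-linked members 8. With summits within 100 bp, 3 X-linked members were left. With either replicate left out, the counts ran from 18 to 28 for all members, from 5 to 11 for *flp*, 13 to 17 for *nlp*, 7 to 10 for X-linked and 11 to 18 for autosomal genes, and 25 to 44 for regions, with a median fold enrichment of 3.05 to 3.29. The cause of these shifts was not tested, apart from the wider or narrower rules themselves. No paired analysis was possible because there is 1 group and no test. The lists give no depth, so a missing peak does not show that EGL-43 was absent.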
